A study of Mus musculus with 12 samples.

Results

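The constitutive proteasome genes were described in natural killer (NK) cells, lymphocytes of the innate immune system that can kill tumor cells without prior exposure. Every protein-coding mouse gene whose symbol begins with Psma, Psmb, Psmc, Psmd, Psme, Psmf or Psmg was taken, except the immunoproteasome genes Psmb8, Psmb9 and Psmb10 and the interferon-inducible activator genes Psme1 and Psme2. This gave 46 genes of the 56748 gene IDs in the count tables, spread over 16 chromosomes. RNA was sequenced from NK cells sorted out of mouse lymph nodes, in 12 libraries. The hematogenous group had 4 libraries from nodes bearing diffuse large B cell lymphoma after spread by way of the blood vessels. The lymphatic group had 4 libraries from nodes bearing the same kind of lymphoma spread by way of the lymphatics. The tumor-free group had 4 libraries from nodes of C57BL/6J mice without tumor. The lymphoma cells used, the sorting markers, the age and sex of the mice, any pooling of animals and the strain of the tumor-bearing mice are not stated in the labels used. The labels number the libraries of a group but do not tie them to separate animals, so p-values measure the spread between these libraries, which may be technical.

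The proteasome is the protease that removes most ubiquitin-tagged proteins from the cytosol and nucleus. Its barrel-shaped core is built of outer rings of alpha subunits, which gate the entrance, and inner rings of beta subunits, some of which cut the substrate. A regulatory particle on each end, with a base of ATPases and a lid, recognizes the ubiquitin tag, takes it off and threads the unfolded chain into the core. Lymphocytes also make immunoproteasome subunits, which replace the cutting beta subunits of newly built cores. The transcription factor NFE2L1 is known to raise the genes of the constitutive particle together when the proteasome is inhibited.

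Gene counts ranged from 6654215 to 43494812 per library. Of all reads, 55.4% to 65.5% were assigned to genes in the hematogenous libraries, 67.1% to 72.1% in the lymphatic libraries and 65.7% to 70.7% in the tumor-free libraries. All 10 NK markers were present in every library, with Ncr1 at 552 to 1463 CPM (read counts scaled to a common library size by the TMM method) and Klrb1c at 629 to 1381 CPM. Their summed level was 8936 to 10674 CPM in the hematogenous group, against 12369 to 15315 CPM in the lymphatic libraries and 13667 to 15394 CPM in the tumor-free libraries. The 8 T cell markers summed to 390.2 to 510.1 CPM in the hematogenous group, 213 to 386 CPM in the lymphatic group and 178 to 305 CPM in the tumor-free group. The 6 markers of cycling cells summed to 68.3 to 144 CPM in the hematogenous group, 274 to 462 CPM in the lymphatic group and 111 to 177 CPM in the tumor-free group. The 10 B cell markers summed to 91.9 to 160.5 CPM in the hematogenous group, 103 to 339 CPM in the lymphatic group and 34.9 to 136 CPM in the tumor-free group. The B cell markers Cd79b, Fcer2a and Fcrla and the T cell marker Cd8b1 were at 0 in at least 1 library. Hematogenous library 1 was the lowest of its group for 29 of the 44 proteasome genes tested, and lymphatic library 2 was the highest of its group for 40. Lymphatic library 3 was the lowest of its group for 29 and tumor-free library 2 the highest of its group for 25. Counts of called genes are also given with some of these libraries left out, as are the changes of some single genes.

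Transcripts of the proteasome were less abundant in NK cells of hematogenous nodes than in those of either other group. The 46 genes summed to 2348, 3028, 2802 and 2988 CPM in hematogenous libraries 1 to 4. They summed to 3737, 4827, 3368 and 3737 CPM in lymphatic libraries 1 to 4, and to 3743, 4087, 3479 and 3636 CPM in tumor-free libraries 1 to 4. All 4 hematogenous sums lay below the other 8. As a share of gene counts, which scales by library size alone, the 46 genes took 0.286% ± 0.028 (SD, n = 4) in the hematogenous group, 0.374% ± 0.055 in the lymphatic group and 0.379% ± 0.029 in the tumor-free group. In bulk RNA, fewer cells of a type and less RNA per cell cannot be told apart.

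In NK cells of hematogenous nodes, 18 of the 44 tested genes (40.9%) were lower than in tumor-free nodes and 1, Psme4, was higher, by edgeR's quasi-likelihood test with Benjamini-Hochberg adjustment over all 16016 genes. Across all genes 6.87% were called lower, 9.52% higher and 16.4% in either direction. Of the 8359 genes at mean levels like those of the subunits and helpers (8.73 to 222 CPM), 21.4% were called in either direction. Of the 44 genes, 42 had a negative log2 fold change, with a median of -0.42, against 0.08 over all genes. The groups did not overlap for 20 of the 44, all 4 hematogenous libraries lying below all 4 tumor-free ones, and for 1 gene they lay above, where 8.01% of all genes lay below and 11.5% above. The count of called genes was 9 without hematogenous library 1 (12.5% of all genes), 11 without hematogenous library 3 (10.5%) and 9 without tumor-free library 2 (12.7%). It was 13 without both hematogenous library 1 and lymphatic library 2 (12.8%). Calls for Psmc3, Psmd2, Psmb6, Psmd12, Psmb5 and Psmd14 held in each of the 27 alternative fits. The summed NK markers were lower and the T cell markers higher in the same hematogenous libraries, with 7 of 10 NK markers lower and 3 of 8 T cell markers higher by the same test. Higher too were 3 of 9 myeloid markers (median log2 fold change of the 9 -0.32), 2 of 5 erythroid markers (median 2.89) and 1 of 10 B cell markers, and 1 of 6 cycling cell markers was lower. Erythroid markers summed to 0.851 to 54.4 CPM in hematogenous libraries and 0 to 14.4 CPM in tumor-free libraries. The part of the NK, T cell, myeloid and erythroid markers in the result was not tested. In a fit with the mean level of the B cell markers as a covariate 7 members and 9.62% of all genes were called. With voom and library quality weights in limma (quality-weighted voom) in place of edgeR, 9 members and 12.5% of all genes were called.

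**Figure D1:**
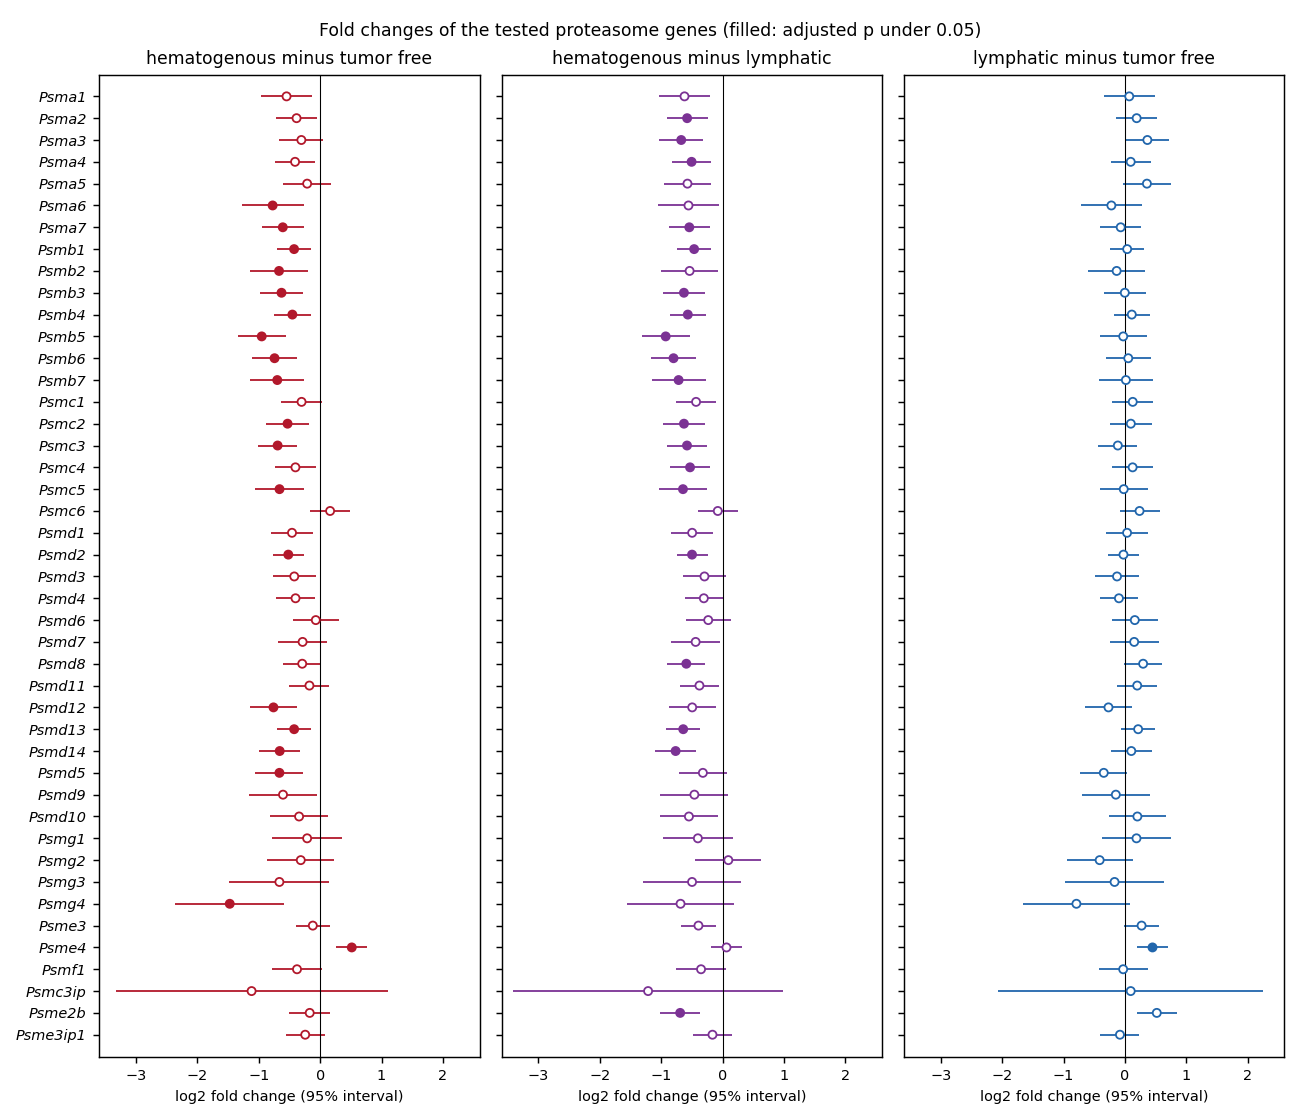
Log2 fold changes (x axis) of the 44 tested proteasome genes (rows, by role from alpha ring to genes that share only the name), for hematogenous over tumor free, hematogenous over lymphatic and lymphatic over tumor free; points are edgeR estimates, lines 95% intervals, and filled points have an adjusted p under 0.05. In the first and second panels 42 of 44 points lie left of 0, and in the third 18 do.

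All 3 cutting subunits were lower in the hematogenous group than in either other group. Psmb5, which carries the chymotrypsin-like site, had 25.1, 33.3, 19.4 and 26.7 CPM in hematogenous libraries 1 to 4. It had 45.7, 61.5, 49.1 and 42.5 CPM in the lymphatic libraries and 50.4, 60.5, 47.6 and 44.2 CPM in those free of tumor. The highest hematogenous value lay below the lowest of the other 8 libraries, while the lymphatic and tumor-free values overlapped. The change was log2 fold change -0.95 ± 0.19 (SE), adjusted p = 0.00221 against tumor free, with a 95% interval of -1.35 to -0.56, and log2 fold change -0.93 ± 0.19 (SE), adjusted p = 0.00472 against lymphatic. The tumor-free level was thus 1.94-fold the hematogenous one.

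Psmb6, which carries the caspase-like site, had 33.4, 59.5, 39.7 and 54.9 CPM in hematogenous libraries 1 to 4. It had 74.3, 95.3, 77.8 and 79.0 CPM in the lymphatic libraries and 84.0, 90.4, 78.2 and 61.7 CPM in those free of tumor. All hematogenous values again lay below the other 8, although libraries 2 and 4 came close to the lowest tumor-free one. The change was log2 fold change -0.74 ± 0.18 (SE), adjusted p = 0.00816 against tumor free and log2 fold change -0.80 ± 0.18 (SE), adjusted p = 0.00858 against lymphatic. The second of these calls was lost without hematogenous library 3 (adjusted p = 0.0546).

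Psmb7, which carries the trypsin-like site, had 27.9, 41.0, 39.8 and 40.5 CPM in hematogenous libraries 1 to 4. It had 60.2, 80.0, 44.7 and 60.4 CPM in the lymphatic libraries and 49.8, 89.8, 52.1 and 51.5 CPM in those free of tumor. No hematogenous value reached the other groups, but hematogenous library 1 and tumor-free library 2 stood apart from their own groups. The change was log2 fold change -0.70 ± 0.21 (SE), adjusted p = 0.0291 against tumor free and log2 fold change -0.72 ± 0.21 (SE), adjusted p = 0.0376 against lymphatic. Against tumor free the adjusted p was 0.0901 without hematogenous library 1, 0.0565 without hematogenous library 3 and 0.132 without tumor-free library 2. Against lymphatic the call held without lymphatic library 3, tumor-free library 2 or tumor-free library 3, and was lost without any other single library, at adjusted p of 0.0549 to 0.18.

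**Figure D2:**
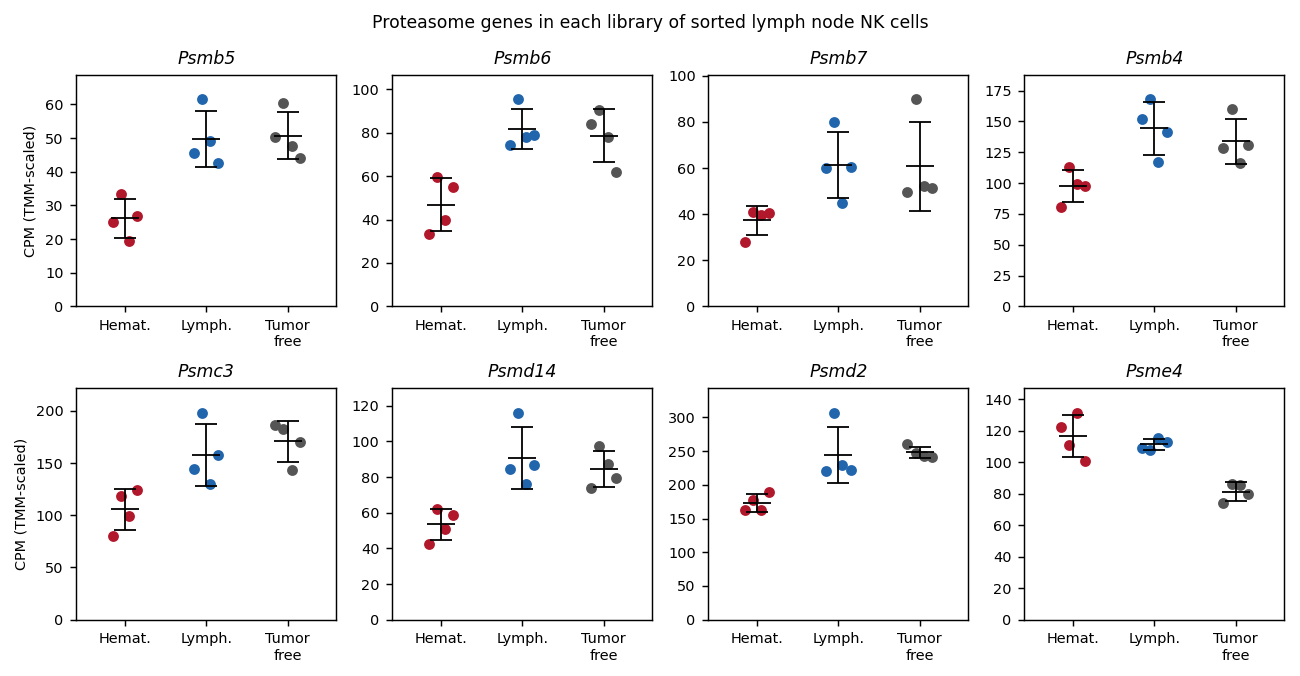
TMM-scaled CPM (y axis, from 0) of 8 proteasome genes in each library; points are libraries, long bars group means and whiskers SD (n = 4). For the first 7 genes all 4 hematogenous points lie below the tumor-free points; for Psme4 they lie above them.

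The other beta subunits, which form the walls of the inner rings, were all 4 called lower against tumor free. Psmb4, the one with the highest level per kilobase of exon, had 80.3, 113, 99.4 and 98.0 CPM in hematogenous libraries, 152, 168, 117 and 141 CPM in lymphatic libraries and 129, 159.6, 116 and 131 CPM in tumor-free libraries 1 to 4. The hematogenous values lay below the others with no overlap, and the change was log2 fold change -0.45 ± 0.14 (SE), adjusted p = 0.0345 against tumor free. Psmb3 changed by -0.63, adjusted p = 0.0131, Psmb2 by -0.67, adjusted p = 0.048 and Psmb1 by -0.42, adjusted p = 0.0344 on the log2 scale. Psmb2 was the one whose groups overlapped, through a single tumor-free library at 42.0 CPM. The call for Psmb3 held in each leave-out of 1 library and was lost with the B cell covariate (-0.53, adjusted p = 0.0559). With quality-weighted voom the change of Psmb2 was -0.36, adjusted p = 0.28. In the leave-outs the calls for Psmb1, Psmb2 and Psmb4 were each lost without hematogenous library 1 (adjusted p of 0.105, 0.147 and 0.11), hematogenous library 3 (0.0605, 0.0909 and 0.0725), hematogenous library 4 (0.0783, 0.0643 and 0.0702), tumor-free library 1 (0.0572, 0.0977 and 0.057) or tumor-free library 2 (0.121, 0.166 and 0.12). Without lymphatic library 1 it was 0.0503 for Psmb1 and 0.0607 for Psmb2, and without tumor-free library 4 it was 0.0811 for Psmb2 and 0.0591 for Psmb4.

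In the alpha ring, which gates the core and docks the regulatory particle, all 7 genes had negative fold changes against tumor free and 2 were called. Psma6, the alpha gene with the highest level per kilobase, had 32.8, 89.2, 84.8 and 85.3 CPM in hematogenous libraries, 101, 143, 82.9 and 103 CPM in lymphatic libraries and 118, 132, 96.9 and 155 CPM in tumor-free libraries 1 to 4. Its hematogenous values lay below the tumor-free ones and overlapped the lymphatic ones, and library 1 was far below its own group. The change against tumor free was log2 fold change -0.77 ± 0.24 (SE), adjusted p = 0.0337, and the adjusted p was 0.057 without hematogenous library 1, 0.0949 without tumor-free library 2 and 0.111 without tumor-free library 4. Without lymphatic library 1 or tumor-free library 1 it was 0.0527 and 0.0613. Psma7 changed by -0.61, adjusted p = 0.0149, which became 0.0514 without hematogenous library 1 and 0.0617 without tumor-free library 2. The remaining 5 ranged from -0.55 for Psma1 to -0.21 for Psma5.

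The base ATPases pull the substrate in. Psmc3 had 80.3, 119, 99.2 and 124 CPM in hematogenous libraries, 145, 198, 130.3 and 158 CPM in lymphatic libraries and 187, 183, 144 and 171 CPM in tumor-free libraries 1 to 4. Every hematogenous value lay below both other groups, and the change was log2 fold change -0.69 ± 0.15 (SE), adjusted p = 0.00483 against tumor free. Psmc5 (-0.66, adjusted p = 0.0208) and Psmc2 (-0.53, adjusted p = 0.0332) were also called, and both calls were lost without hematogenous library 1, hematogenous library 3 or tumor-free library 2, at adjusted p of 0.055 to 0.0967. That for Psmc2 was also lost without tumor-free library 1 (0.0569) or 4 (0.0676). Psmc1, the ATPase gene with the highest level per kilobase, and Psmc4 had log2 fold changes of -0.30 and -0.40 and did not pass. Psmc6 differed in sign from the other ATPases at 0.16, adjusted p = 0.541, with 82.0, 75.2, 87.1 and 69.0 CPM in hematogenous libraries, 81.0, 95.8, 63.5 and 90.0 CPM in lymphatic libraries and 78.2, 77.5, 70.1 and 54.1 CPM in tumor-free libraries 1 to 4. Its 3 groups overlapped throughout, with 95% intervals of -0.16 to 0.49 against tumor free and -0.40 to 0.25 against lymphatic.

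Among the 11 remaining base and lid genes all had negative fold changes against tumor free and 4 were called. Psmd14 encodes the lid enzyme that cuts the ubiquitin chain off the substrate. It had 42.6, 62.0, 50.9 and 58.5 CPM in hematogenous libraries 1 to 4, 84.8, 116, 76.3 and 86.6 CPM in the lymphatic libraries and 74.0, 97.5, 87.3 and 79.6 CPM in those free of tumor. The groups did not overlap, and the change was log2 fold change -0.66 ± 0.16 (SE), adjusted p = 0.00857 against tumor free and log2 fold change -0.76 ± 0.16 (SE), adjusted p = 0.00597 against lymphatic. Psmd2 encodes the base scaffold on which shuttle receptors dock and had the highest level per kilobase of these 11.

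Psmd2 had 162, 178, 163 and 189 CPM in hematogenous libraries 1 to 4, 219.9, 307, 229 and 221 CPM in the lymphatic libraries and 260.3, 247, 243 and 242 CPM in those free of tumor. The tumor-free libraries agreed closely and all exceeded the highest hematogenous one, and lymphatic library 2 stood above all others. The change was log2 fold change -0.52 ± 0.12 (SE), adjusted p = 0.00675 against tumor free. The lid subunit genes Psmd12 (-0.76, adjusted p = 0.00893) and Psmd13 (-0.42, adjusted p = 0.0356) were the other called ones, the second lost without any one of 5 libraries (hematogenous 1 and 3 and tumor-free 1, 2 and 4, adjusted p of 0.0614 to 0.125). The ubiquitin receptor gene Psmd4 changed by -0.40, adjusted p = 0.0745, with no overlap between its groups, and Psmd6 was nearest to 0 at -0.07.

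The assembly chaperones, which guide the building of the particle and leave it afterwards, had negative fold changes for all 7 genes against tumor free, with 2 called. Psmg4, a partner of Psmg3 in the chaperone pair for the alpha ring, had 1.89, 6.91, 2.98 and 8.11 CPM in hematogenous libraries, 7.20, 9.54, 6.31 and 9.06 CPM in lymphatic libraries and 11.6, 10.9, 11.2 and 22.0 CPM in tumor-free libraries 1 to 4. It rested on few reads, 20 to 137 counts in the hematogenous libraries and 74 to 262 in the tumor-free ones. The hematogenous values lay below the tumor-free ones, of which library 4 was far above the rest, and the change was log2 fold change -1.47 ± 0.43 (SE), adjusted p = 0.023. The adjusted p was 0.0557 without hematogenous library 1, 0.0818 without hematogenous library 3 and 0.085 without tumor-free library 4. Psmd5, a chaperone of the base, changed by -0.66, adjusted p = 0.0196, although the groups overlapped, and was lost without hematogenous library 4 (0.0612) or tumor-free library 2 (0.0746). Psmd10, the chaperone gene with the highest level per kilobase, changed by -0.34, adjusted p = 0.34, and Psmd9, Psmg1, Psmg2 and Psmg3 ranged from -0.66 to -0.21 without passing.

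Psme4 moved the other way. It encodes a single large activator that caps the core in place of the regulatory particle and is known for the breakdown of acetylated histones. It had 122, 111, 131 and 101 CPM in hematogenous libraries 1 to 4, 109, 108, 115 and 113 CPM in the lymphatic libraries and 73.8, 86.3, 85.7 and 79.9 CPM in those free of tumor. Both tumor groups lay above all 4 tumor-free libraries and overlapped each other. The change against tumor free was log2 fold change 0.52 ± 0.12 (SE), adjusted p = 0.00674 in the hematogenous group and log2 fold change 0.45 ± 0.12 (SE), adjusted p = 0.0477 in the lymphatic group, which share the same tumor-free libraries. Between the hematogenous and lymphatic groups the difference was log2 fold change 0.06 ± 0.12 (SE), adjusted p = 0.825, with a 95% interval of -0.18 to 0.31. The hematogenous call held in every leave-out of 1 library but was lost once the trend of fold change with exon length was removed (0.27, adjusted p = 0.132); Psme4 has the longest exon model of the 46 at 8382 bases. The lymphatic call was lost in 11 of the 12 leave-outs of 1 library, at adjusted p of 0.0708 to 0.186, and held without tumor-free library 3. With the length trend removed the lymphatic change was 0.31, adjusted p = 0.192.

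The other activator and the inhibitor did not pass. Psme3, a nuclear activator, averaged 125 ± 5.30 CPM (SD, n = 4) in hematogenous nodes, 165 ± 30.8 CPM in lymphatic nodes and 136 ± 17.6 CPM in nodes free of tumor, and changed by -0.12, adjusted p = 0.61 against tumor free. Psmf1, an inhibitor of the core in vitro, changed by -0.38, adjusted p = 0.204.

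The tissue-restricted core subunits were nearly absent. Psma8, the alpha subunit of the testis, had 19, 0, 6 and 0 counts in hematogenous libraries 1 to 4, 4, 4, 6 and 0 in the lymphatic libraries and 0 in all tumor-free ones. Psmb11, the cutting subunit of thymic cortical epithelium, had 6 counts in tumor-free library 3 and 0 elsewhere. Both fell under the filter on low counts and were not tested. Of the genes that share only the name, Psmc3ip, a meiotic recombination gene, varied from 0 to 12.3 CPM and was not called in any comparison. Psme3ip1, which encodes a protein that binds Psme3, changed by -0.24, adjusted p = 0.314. Psme2b, an intronless copy of the excluded Psme2, may share reads with it; it changed by -0.17, adjusted p = 0.523 against tumor free and -0.69, adjusted p = 0.00977 against lymphatic, the second of which became 0.0539 without lymphatic library 2 and -0.44, adjusted p = 0.0733 with the length trend removed.

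**Figure D3:**
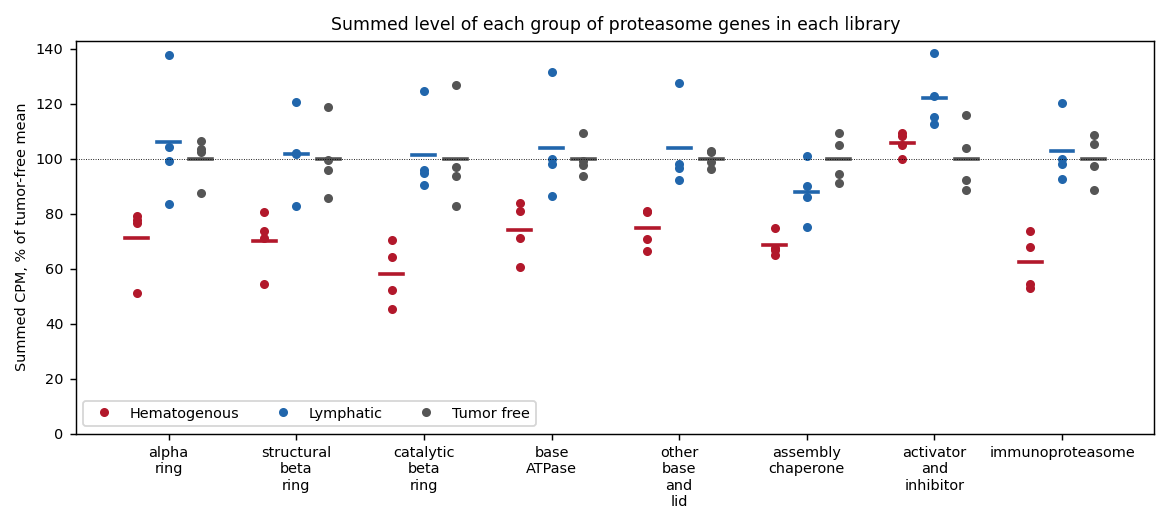
Summed CPM of each role group in each library, as a percentage of the tumor-free mean of that group (y axis, from 0); points are libraries, bars group means, and the immunoproteasome group holds the 5 genes left out of the rule. The catalytic genes of the hematogenous libraries sit at 45.5% to 70.4%, and the activator and inhibitor genes at 99.9% to 109%.

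Levels were compared between members per kilobase of exon. The highest over all 12 libraries were Psme2b at 87.9, Psma6 at 82.6, Psmb4 at 64.2, Psmc1 at 60.0 and Psmc3 at 55.5 CPM per kilobase. The constitutive cutting genes differed among themselves, with Psmb5 at 46.9, Psmb6 at 36.9 and Psmb7 at 15.5 CPM per kilobase. Levels per kilobase depend on the exon model, and subunits of one ring occur in equal numbers in the finished particle. Summed by role, the catalytic genes in the hematogenous group stood at 58.0% ± 11.3 (SD, n = 4) of the tumor-free mean, the structural beta genes at 70.0% ± 11.1, the alpha genes at 71.1% ± 13.4 and the ATPase genes at 74.2% ± 10.6. The other base and lid genes stood at 74.7% ± 7.22 and the assembly chaperones at 68.4% ± 4.41.

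Promoter sequence from RefSeq (GRCm38.p6, an older build than the counts) was held for 38 of the 46 genes, in 41 windows of 250 bases ending just before the annotated start. It is shown for 3 genes that were lower in every fit against tumor free and for Psme4, which was higher, so that the windows can be read beside their values. Capitals mark matches to any of 4 motifs searched on both strands, which are the antioxidant response element core TGACNNNGC, the cyclic AMP response element part TGACGT, the ETS site CCGGAA and the box CCAAT.
Psmb5, chr14:54617996-54618245, minus strand: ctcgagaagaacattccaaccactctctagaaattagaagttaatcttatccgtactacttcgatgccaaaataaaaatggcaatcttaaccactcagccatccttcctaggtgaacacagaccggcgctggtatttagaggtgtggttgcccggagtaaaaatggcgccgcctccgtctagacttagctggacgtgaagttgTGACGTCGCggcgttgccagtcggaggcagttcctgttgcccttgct
Psmb6, chr11:70525107-70525356, plus strand: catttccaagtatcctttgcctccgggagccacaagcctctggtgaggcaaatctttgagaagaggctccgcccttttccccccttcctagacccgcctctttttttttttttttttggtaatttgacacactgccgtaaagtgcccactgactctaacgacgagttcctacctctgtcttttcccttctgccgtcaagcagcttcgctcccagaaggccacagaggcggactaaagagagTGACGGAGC
Psmd14, chr2:61711444-61711693, plus strand: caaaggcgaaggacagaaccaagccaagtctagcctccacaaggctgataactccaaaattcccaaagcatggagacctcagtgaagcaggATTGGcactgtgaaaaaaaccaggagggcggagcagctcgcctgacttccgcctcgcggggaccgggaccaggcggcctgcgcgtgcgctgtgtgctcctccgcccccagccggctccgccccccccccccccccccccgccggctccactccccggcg
Psme4, chr11:30771525-30771774, plus strand: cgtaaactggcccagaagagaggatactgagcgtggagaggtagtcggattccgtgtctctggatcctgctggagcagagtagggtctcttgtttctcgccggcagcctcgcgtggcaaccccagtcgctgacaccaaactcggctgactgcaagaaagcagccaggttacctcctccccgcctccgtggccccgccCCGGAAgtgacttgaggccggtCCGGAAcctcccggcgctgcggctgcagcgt
The Psmb5 window held overlapping matches to the antioxidant response core and the cyclic AMP response part, 47 bases before the start. The Psmb6 window held an antioxidant response core directly before the start, the Psmd14 window a CCAAT box read on the opposite strand, and the Psme4 window a pair of ETS sites. Over all 41 windows, 46.3% held the ETS site, against 12% of the 32851 windows in the RefSeq table. The antioxidant response core, which NFE2L1 and its relatives can bind, was in 12.2% against 10.2%, the CCAAT box in 36.6% against 33.8% and the cyclic AMP response part in 9.76% against 6.47%. A match is a run of letters and does not show binding.

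The comparison of the hematogenous with the lymphatic group asked whether the routes of spread differ. Here 19 of 44 genes (43.2%) were called lower and none higher, where 5.92% of all genes were called lower, 2.93% higher and 8.85% in either direction. Of the 8359 genes at like mean levels, 12.5% were called in either direction. No member was called higher by DESeq2. At an unadjusted p under 0.05 by edgeR, 30 of the 44 were lower and 0 higher. Of all 16016 genes, 2104 were lower and 1370 higher at that threshold. Of the 44, 42 had negative fold changes, with a median of -0.53 against -0.01 over all genes, and 24 did not overlap, all lower. Of all genes 11.3% lay below without overlap, 9.17% above and 20.5% either way. By role the called genes were 4 of 7 alpha (Psma2, Psma3, Psma4 and Psma7), 3 of 4 structural beta (Psmb1, Psmb3 and Psmb4), 3 of 3 catalytic, 4 of 6 ATPases (Psmc2, Psmc3, Psmc4 and Psmc5), 4 of 11 other base and lid genes (Psmd2, Psmd8, Psmd13 and Psmd14) and Psme2b. None of the 7 assembly chaperones was called, with 1 of 7 lower at an unadjusted p under 0.05 by edgeR.

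These calls depended on scaling and on single libraries. The count of called genes was 12 with upper quartile scaling (8.11% of all genes, against 8.85% in the main fit) and 11 with library size alone (8.33%). Removing the trend of fold change with exon length left 9 (7.03%). The count was 4 without lymphatic library 2 (3.73%), 5 without hematogenous library 1 (4.79%) and 6 without hematogenous library 3 (3.69%), so calls over all genes fell too. It was 12 each without hematogenous library 2 (7.33%), hematogenous library 4 (7.01%) or tumor-free library 4 (7.98%). Without lymphatic library 3 it was 23 (8.04%). The 4 called without lymphatic library 2 were Psmb5, Psmb6, Psmd13 and Psmd14. Those 4 and Psme2b were the 5 called without hematogenous library 1. Without both hematogenous library 1 and lymphatic library 2 no member was called (2.43% of all genes were), while 41 of 44 fold changes stayed negative with a median of -0.28. Calls for Psmb5, Psmd13 and Psmd14 held in each leave-out of 1 library, with adjusted p of at most 0.0422.

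Psmd13 had 73.2, 85.4, 63.5 and 87.2 CPM in hematogenous libraries 1 to 4, 106, 140.5, 113 and 122 CPM in the lymphatic libraries and 103, 109, 95.6 and 108 CPM in those free of tumor. The hematogenous values lay below the others with no overlap, and the change was log2 fold change -0.64 ± 0.13 (SE), adjusted p = 0.00595 against lymphatic. Psma3, the alpha gene with the largest change here, had 49.6, 64.0, 81.2 and 72.8 CPM in hematogenous libraries 1 to 4, 108, 137, 81.7 and 100.4 CPM in the lymphatic libraries and 85.4, 90.7, 87.5 and 67.4 CPM in those free of tumor. Its lymphatic values lay above the hematogenous ones, which overlapped the tumor-free ones, and the change was log2 fold change -0.67 ± 0.17 (SE), adjusted p = 0.0181, with adjusted p of 0.0598 to 0.0955 without lymphatic library 2, hematogenous library 1 or hematogenous library 2.

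The markers of cycling cells did not overlap between these groups either, at 68.3 to 144 CPM in hematogenous libraries and 274 to 462 CPM in lymphatic libraries, and 4 of 6 were called lower. So were 6 of 10 NK markers (median log2 fold change -0.66) and 1 of 9 myeloid markers, and 2 of 8 T cell markers were called higher; the part of these in the result was not tested. With the mean log2 level of the cycling cell markers as a covariate, no member was called, and no gene of all 16016 was. In that fit 39 of 44 members had negative fold changes with a median of -0.38, so the marker level and the group cannot be told apart here.

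In NK cells of lymphatic nodes set against those of tumor-free nodes, Psme4 was the 1 gene of 44 called, higher, where 2.32% of all genes were called higher, 0.418% lower and 2.74% in either direction. No member was called lower by edgeR or DESeq2. At an unadjusted p under 0.05 by edgeR, 3 of the 44 were higher and 0 lower. Of all 16016 genes, 1641 were higher and 548 lower at that threshold. Fold changes were positive for 26 genes and negative for 18, with a median of 0.06 against 0.08 over all genes, and under other scalings the negative ones numbered 23 or 24. Over the 27 alternative fits they ranged from 5 with the B cell covariate (median 0.20) to 34 without lymphatic library 2 (median -0.09). Cycling cell markers summed to 274 to 462 CPM in lymphatic and 111 to 177 CPM in tumor-free libraries, and 2 of 6 were called higher. With their level as a covariate, 2 of all 16016 genes were called. Higher too were 1 of 10 B cell, 1 of 9 myeloid and 1 of 5 erythroid markers, and 1 of 10 NK markers was lower. The part of the NK, myeloid and erythroid markers was not tested. The groups did not overlap for 2 genes, Psme4 and Psme2b, that were higher and for 1, Psmg4, that was lower, against 7.66% higher, 2.24% lower and 9.9% in either direction over all genes. For the cutting subunits the 95% intervals were -0.41 to 0.36 for Psmb5, -0.31 to 0.42 for Psmb6 and -0.42 to 0.45 for Psmb7. Psme2b had 47.3, 62.6, 65.4 and 60.6 CPM in hematogenous libraries, 84.4, 120.0, 88.8 and 87.7 CPM in lymphatic libraries and 54.3, 77.7, 67.0 and 66.9 CPM in tumor-free libraries 1 to 4. Its lymphatic values lay above both other groups, and the change of log2 fold change 0.52 ± 0.16 (SE), adjusted p = 0.0884 did not pass. Psmg4 changed by -0.79, adjusted p = 0.435, Psma3 by 0.37, adjusted p = 0.349, Psmd8 by 0.30, adjusted p = 0.39, Psmc6 by 0.24, adjusted p = 0.569 and Psmb2 by -0.13, adjusted p = 0.873.

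Genes that build the proteasome, control it or bring it substrate were read from a list of 36, of which 35 were held and tested. Against tumor free, 4 were lower and 3 higher in the hematogenous group, where 6.87% of all genes were lower and 9.52% higher, so that the share higher was near that of all genes. Pomp, the maturation factor of the core, had 46.8, 58.2, 47.1 and 69.1 CPM in hematogenous libraries 1 to 4, 101, 138, 78.7 and 97.1 CPM in the lymphatic libraries and 98.9, 110.4, 80.7 and 102 CPM in those free of tumor. The hematogenous values lay below both other groups, and the change was log2 fold change -0.82 ± 0.17 (SE), adjusted p = 0.00338. Sem1, a small lid subunit, changed by log2 fold change -0.90 ± 0.16 (SE), adjusted p = 0.000929, with 42.7 to 61.0 CPM in hematogenous libraries, 76.7 to 110.0 CPM in lymphatic libraries and 85.1 to 126 CPM in tumor-free libraries. Neither call was lost in a leave-out of 1 library.

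Uba1, the main ubiquitin-activating enzyme, changed by -0.41, adjusted p = 0.0223. The Uba1 call was lost without hematogenous library 1, hematogenous library 3 or tumor-free library 4 (adjusted p of 0.057 to 0.0659). Ddi2 encodes the protease that activates NFE2L1, and it was higher. It had 124, 113, 119 and 118 CPM in hematogenous libraries 1 to 4, 89.2, 87.0, 95.7 and 90.3 CPM in the lymphatic libraries and 50.5, 63.0, 86.8 and 84.8 CPM in those free of tumor. The hematogenous values exceeded all others, and the change was log2 fold change 0.73 ± 0.15 (SE), adjusted p = 0.00297.

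Ufd1, a cofactor of the unfoldase VCP, changed by 0.45, adjusted p = 0.0225 and Ecpas, an adaptor that binds the assembled proteasome, by 0.42, adjusted p = 0.0203. Each of these calls was lost in 3 leave-outs of 1 library, Ufd1 without lymphatic library 4, hematogenous library 2 or tumor-free library 2 (0.0578 to 0.0634) and Ecpas without lymphatic library 4, hematogenous library 1 or tumor-free library 4 (0.0513 to 0.0591). With the trend of fold change with exon length removed, the change of Ecpas, whose exon model has 11447 bases, was 0.09, adjusted p = 0.635. Nfe2l1 itself had 92.5, 101, 99.3 and 121 CPM in hematogenous libraries 1 to 4, 101, 140.1, 156 and 139 CPM in the lymphatic libraries and 132, 119, 137 and 166 CPM in those free of tumor. Its groups overlapped, and its change of log2 fold change -0.42 ± 0.15 (SE), adjusted p = 0.0541 against tumor free did not pass. The polyubiquitin gene Ubb changed by -0.41, adjusted p = 0.0841.

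Between the tumor groups, 12 of the 35 were lower in the hematogenous one and 2 higher at an unadjusted p under 0.05 by edgeR. Of all 16016 genes, 2104 were lower and 1370 higher at that threshold. After adjustment 6 of the 35 were lower and none was higher, where 5.92% of all genes were lower and 2.93% higher. They were Pomp (-0.91, adjusted p = 0.00319), Sem1 (-0.73, adjusted p = 0.00714), Uba1 (-0.57, adjusted p = 0.00605), Ubb (-0.61, adjusted p = 0.0196), the unfoldase gene Vcp (-0.58, adjusted p = 0.0226) and Zfand5 (-0.57, adjusted p = 0.0112). The calls for Ubb and Vcp were lost without lymphatic library 2, hematogenous library 1 or hematogenous library 3 (0.0631 to 0.113), and that for Zfand5 without hematogenous library 1 (0.0503). All 6 were lost without both hematogenous library 1 and lymphatic library 2. Against tumor free, the lymphatic group was higher for 2 of the 35 genes, where 2.32% of all genes were higher. One of these, Zfand5, encodes a stress-induced proteasome activator. It had 71.7, 80.6, 90.0 and 81.0 CPM in hematogenous libraries 1 to 4, 119, 137, 108 and 118 CPM in the lymphatic libraries and 62.8, 66.0, 82.8 and 79.4 CPM in those free of tumor. The lymphatic values lay above both other groups, which overlapped each other. The change against tumor free was log2 fold change 0.72 ± 0.13 (SE), adjusted p = 0.00361. The call held in each leave-out of 1 library but not with the B cell covariate (0.68, adjusted p = 0.0536). It was also lost with the cycling cell covariate (0.82, adjusted p = 0.587), a fit in which 2 of all 16016 genes were called.

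**Figure D4:**
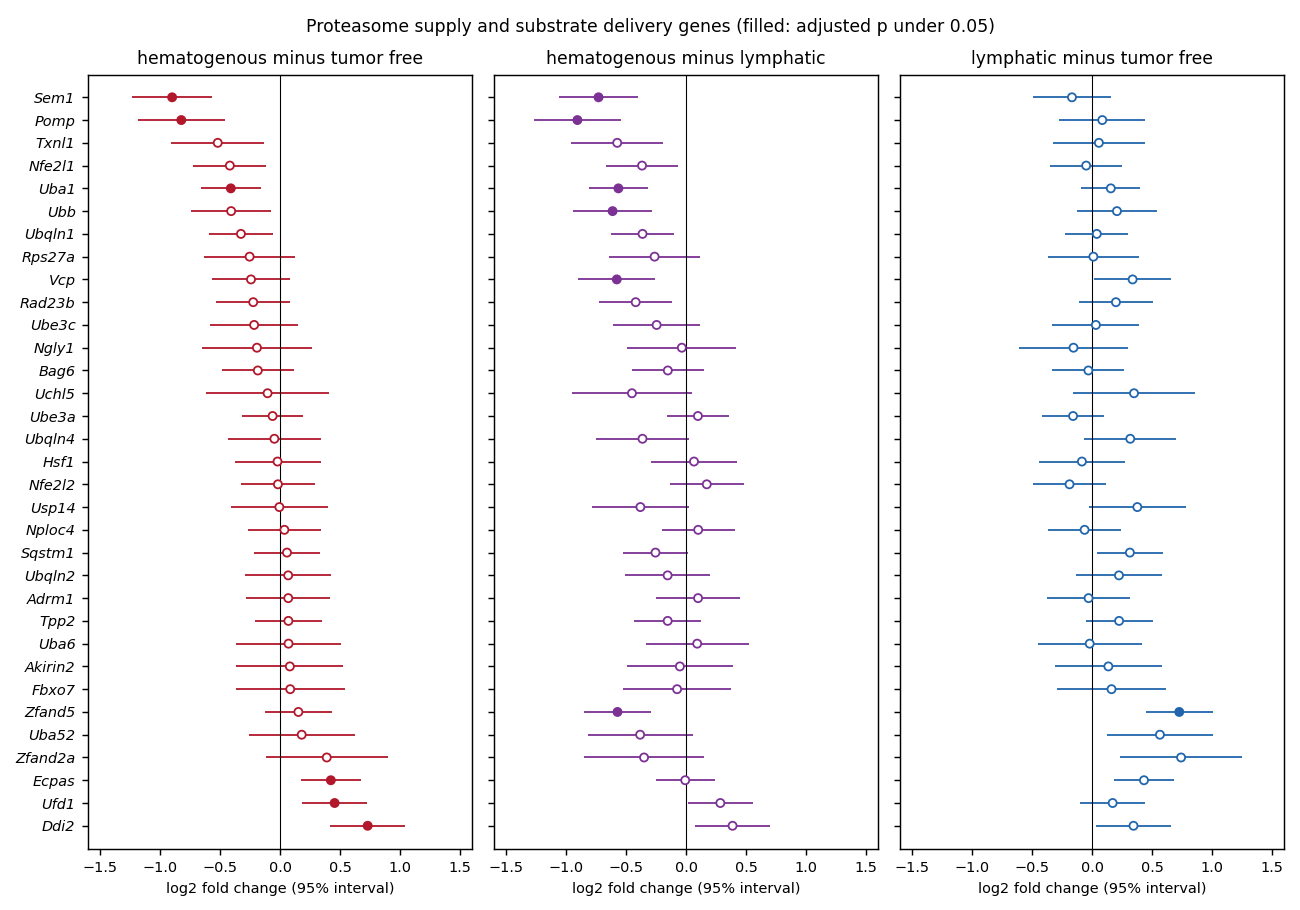
Log2 fold changes (x axis) of 33 of the 35 tested genes of proteasome supply and substrate delivery (rows, ordered by the first panel), in the same 3 comparisons; points are edgeR estimates, lines 95% intervals, and filled points have an adjusted p under 0.05. Sem1 and Pomp lie farthest left and Ddi2 farthest right in the first panel, and Zfand5 is the filled point in the third.

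The immunoproteasome genes that the rule leaves out were lower in the same libraries. Against tumor free 4 of 5 were called lower in the hematogenous group, Psmb10 (-1.33, adjusted p = 0.000468), Psmb8 (-0.51, adjusted p = 0.0136), Psme1 (-0.90, adjusted p = 0.000379) and Psme2 (-0.54, adjusted p = 0.0186), while Psmb9 changed by -0.26, adjusted p = 0.187. The call for Psmb8 was lost without hematogenous library 3 (0.0565) and that for Psme2 without hematogenous library 1 (0.0608) or 3 (0.0561). The balance of each immunoproteasome subunit with the constitutive one it replaces was taken as a log2 ratio of counts within a library, with 0.5 added and no correction for length. Psmb8 over Psmb5 was 2.95 ± 0.19 in the hematogenous, 2.66 ± 0.17 in the lymphatic and 2.51 ± 0.22 in the tumor-free group (SD, n = 4 each). Psmb9 over Psmb6 was 1.32 ± 0.44 in the hematogenous, 0.80 ± 0.23 in the lymphatic and 0.81 ± 0.29 in the tumor-free group. Psmb10 over Psmb7 was 0.60 ± 0.52 in the hematogenous, 1.16 ± 0.43 in the lymphatic and 1.34 ± 0.41 in the tumor-free group. None of the 9 differences between groups passed a two-sided exact permutation test after Benjamini-Hochberg adjustment over the 9, the lowest raw p being 0.0857 and the lowest adjusted p 0.193. The smallest p that 4 against 4 allows is 0.0286, so 9 tests of this size can pass after adjustment only when several reach it. All 3 group ranges overlapped for each ratio.

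**Figure D5:**
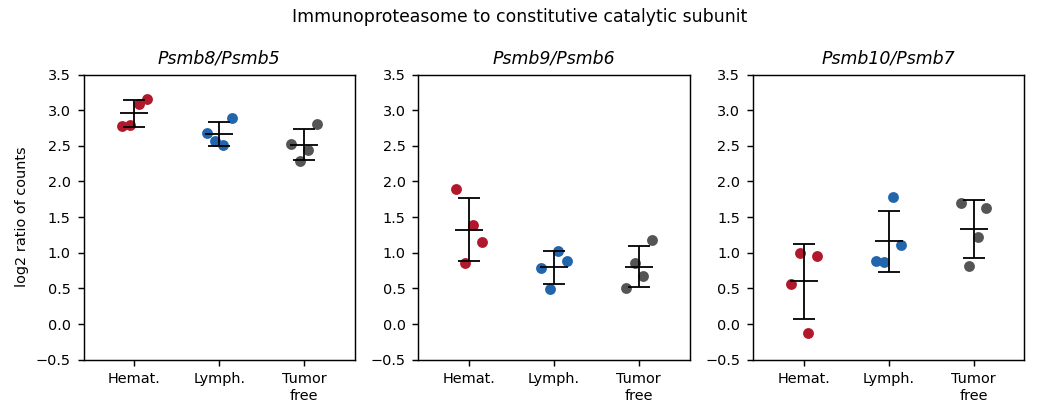
Log2 ratio of counts (y axis) of each immunoproteasome subunit over its constitutive counterpart in each library; points are libraries, long bars group means and whiskers SD (n = 4). Group means of Psmb8 over Psmb5 are 2.95, 2.66 and 2.51 in the hematogenous, lymphatic and tumor-free groups, and the points of the 3 groups overlap.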

How the data were processed

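RNA sequencing counts of NK cells sorted from mouse lymph nodes were used, 4 libraries in each of 3 groups named by the sample titles. The authors deposited unnormalized counts of reads for each gene. The submitters' processing notes name HTSeq 2.0.2, HISAT2 2.1.0, Trimmomatic 0.39 and FastQC 0.11.9, and the build GRCm39. Per the labels' protocols, poly(A) RNA was made into stranded single-end libraries read at 120 bp. Which annotation release and which strand option were used is not given in the sources read here, so overlapping and antisense genes may share reads, as may near-identical copies. The 5 summary lines of each file, which name no gene, did not enter library sizes or tests. Reads outside annotated features were 17.5% to 24.6% of a hematogenous library, 13.9% to 17.4% of a lymphatic one and 11.4% to 21.1% of a tumor-free one. The part of this share in the results was not tested. Symbols and exon lengths came from GENCODE M21 and RefSeq, and 91.9% of gene IDs had a symbol.

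Genes were tested with edgeR 4.0.16 in R 4.3.3, by the quasi-likelihood F test with TMM scaling, robust estimation and edgeR's default filter on low counts. All 12 libraries were fitted in 1 model of group, with 9 residual degrees of freedom and a biological coefficient of variation of 0.429, and 16016 genes were tested, among them 44 of the 46 members. Calls were made at an adjusted p under 0.05 (Benjamini-Hochberg, over all genes). Standard errors were obtained by dividing the size of the log2 fold change by the root of F. Counts came from reads without molecular identifiers, and depth was lowest, at 6654215 gene counts, in a tumor-free library.

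Ratios within a library were compared by exact permutation tests. Alternatives covered scaling, low-count filters, DESeq2 1.42.0, voom with library quality weights in limma 3.58.1, equal depth, thresholds, marker covariates, a replicate block and leaving out each library. Removal of the gene length trend, for which 97.8% of tested genes and 44 of 44 tested members had a length, and leaving out 2 libraries together were added after seeing the data. The members, role groups and gene lists were chosen with earlier results of these data known. Named were all called members, in each role group the one with the highest level per kilobase and the largest change in each comparison, the cutting, tissue-restricted and name-only genes, called pathway genes and Nfe2l1, Pomp and Ubb, apart from 2 pathway genes that enter the counts but are not reported here by name or value; others are named for contrast and were chosen after their values were seen. Marker lists covered NK, B, T, myeloid, plasma, erythroid, stromal and cycling cells; those not given in the results summed to 768 to 1080 CPM in hematogenous, 1260.3 to 1578 CPM in lymphatic and 961 to 1098 CPM in tumor-free libraries for myeloid cells, of which Itgax, which mouse NK cells also express, had 539 to 1469 CPM, and to at most 103 CPM for plasma cells, 54.4 CPM for erythroid cells and 3.74 CPM for stroma and endothelium.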

Additional observations from a re-analysis of the deposited data

Results flagged for a closer look

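Among 141 sets of 4 libraries checked, which were the 44 tested genes and the 3 ratios in each of the 3 groups, 12 had a library whose gap to the nearest other exceeded Dixon's 95% critical value, where chance alone gives about 5% of such sets. Lymphatic library 2 was above the rest of its group for 7 genes. It had 123 CPM for Psma4, against 79.6 to 85.5 CPM in the other lymphatic libraries, and 131 CPM for Psmc4, against 88.8 to 91.5 CPM. It had 107 CPM for Psmc5, 307 CPM for Psmd2 and 94.3 CPM for Psmd7. For the low-count chaperone gene Psmg3 it had 11.0 CPM, and for Psme2b, the copy of Psme2, 119.99 CPM.

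Hematogenous library 1 was below the rest of its group for 3 genes. It had 42.0 CPM for Psma1, against 79.4 to 81.2 CPM in the other hematogenous libraries. It had 32.8 CPM for Psma6, against 84.8 to 89.2 CPM, and 27.9 CPM for Psmb7, against 39.8 to 41.0 CPM. In the tumor-free group, library 2 had 89.8 CPM for Psmb7, against 49.8 to 52.1 CPM in the others, and library 4 had 22.0 CPM for Psmg4, against 10.9 to 11.6 CPM. Hematogenous library 1 also had the lowest share of reads assigned to genes, 55.4%, and lymphatic library 2 the highest, 72.1%; their part in these values was not tested.

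The hematogenous and lymphatic effects, both set against tumor free, differed for 19 proteasome genes in the direct test of one tumor group against the other. Of all genes 8.85% were called in that test, 5.92% lower and 2.93% higher in the hematogenous group. Among the 19, 3 were called in every leave-out of 1 library and 0 in every alternative fit. The log2 difference, hematogenous minus lymphatic, was -0.93 for Psmb5, -0.80 for Psmb6 and -0.72 for Psmb7 among the cutting subunits. It was -0.46 for Psmb1, -0.63 for Psmb3 and -0.57 for Psmb4 among the other beta subunits. The alpha genes gave -0.58 for Psma2, -0.67 for Psma3, -0.50 for Psma4 and -0.54 for Psma7. The ATPase genes gave -0.63 for Psmc2, -0.58 for Psmc3, -0.53 for Psmc4 and -0.64 for Psmc5. The other base and lid genes gave -0.50 for Psmd2, -0.59 for Psmd8, -0.64 for Psmd13 and -0.76 for Psmd14, and Psme2b gave -0.69.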

How the results depend on the processing

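No called member changed sign in 27 alternative fits. Against tumor free, the 19 hematogenous calls became 9 with quality-weighted voom, 7 with a B cell covariate and 7 at an adjusted p under 0.01. Calls over all genes went from 16.4% to 12.5% with quality-weighted voom and 9.62% with the B cell covariate. Leaving out 1 library gave 9 to 23 member calls, with 10.5% to 19.5% of all genes called. Against lymphatic, the 19 became 12 with upper quartile scaling, 11 with library size alone, 9 with the length trend removed, 5 at an adjusted p under 0.01 and 0 with a cycling cell covariate, where no gene at all was called. They became 0 without both hematogenous library 1 and lymphatic library 2, where 2.43% of all genes were called. Calls over all genes went from 8.85% to 8.11% with upper quartile scaling, 8.33% with library size alone and 7.03% with the length trend removed. Leaving out 1 library gave 4 to 23 member calls, with 3.69% to 9.2% of all genes called. The single lymphatic call against tumor free became 0 in 24 of 27 alternatives and at an adjusted p under 0.01, and 2 at an adjusted p under 0.1. Leaving out 1 library gave 0 to 1.

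Pathway calls, 7 for hematogenous against tumor free, became 12 with DESeq2, where calls over all genes rose from 16.4% to 21%. They became 3 at an adjusted p under 0.01 and 12 under 0.1. For counts at these 2 thresholds, here and above, the share of all genes is not given. The 6 against lymphatic became 11 with quality-weighted voom (18.2% of all genes) and 0 with the cycling cell covariate. They became 3 at an adjusted p under 0.01, 0 without both hematogenous library 1 and lymphatic library 2, and 3 to 8 when 1 library was left out. The 2 for lymphatic against tumor free became 1 with the B cell covariate (1.15% of all genes) and 0 with the cycling cell covariate (0.0125%). They became up to 5 without 1 library (1.53% to 3.85%).

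Libraries with the same number did not deviate together over all genes (correlations of -0.07 to 0.06). This cannot exclude a shared effect that is small or limited to some genes, and the labels do not say that the numbers pair samples. With the replicate number as a block, member calls were 20 for hematogenous against tumor free, where 15.7% of all genes were called. They were 20 for hematogenous against lymphatic (8.98% of all genes) and 0 for lymphatic against tumor free (2.26%). Over all alternatives the median fold change of all genes lay between -0.03 and 0.14 for hematogenous against tumor free, and that of the members between -0.52 and -0.36. No ratio passed with a pseudocount of 5 or at equal depth. With the replicate block the smallest exact p is 0.125, and between 4 and 3 libraries it is 0.0571, so the ratios could not pass there whatever their values. Low counts limit the precision for Psmg4, with 20 to 349 counts a library, and Psmc3ip, with 0 to 248.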
